A study of Caenorhabditis elegans with 2 samples.

Results

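The genes described here are 7 of Caenorhabditis elegans around CDC-48, the unfoldase known in humans as p97 or VCP. They encode CDC-48, a more distant ATPase of its family, and the best-known substrate adaptors and ubiquitin ligase of CDC-48. They were chosen by name as cdc-48.1, cdc-48.2, cdc-48.3, ufd-1, npl-4.1, npl-4.2 and ufd-2, out of 19973 protein-coding genes on the 6 nuclear chromosomes, with results of these data already known. All 7 were found in the annotation. Peaks were assigned to a gene when the summit lay within 500 bp of its annotated start, and a peak's signal, a value the authors gave to each peak, was ranked within its own list. These signals and positions chose the genes, so they are given as descriptions, with no test.

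CDC-48 is an AAA ATPase that assembles into a hexameric ring and pulls proteins through its central pore, unfolding them. With the adaptor made of UFD-1 and NPL-4 it takes up proteins marked with ubiquitin chains, extracts them from membranes, complexes or chromatin, and passes them to the proteasome. It is known for its part in the degradation of proteins rejected by the endoplasmic reticulum, and in worms for roles in DNA replication and in mitosis and meiosis.

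The data are chromatin immunoprecipitation with sequencing (ChIP-seq) of F23B12.7, the worm counterpart of human CEBPZ, carried as a transgene fused to GFP and FLAG at its C terminus. The strain, OP429, has the genotype unc-119(tm4063) III with the insertion wgIs429, and both samples carried these alleles. Whole young adult hermaphrodites were used, sonicated chromatin was precipitated with an antibody against GFP, and there was 1 group of 2 biological replicates, so no groups were compared and the tissues of the animal cannot be told apart. Enrichment was called against the same control in each list.

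The authors' set of peaks that passed a threshold on the irreproducible discovery rate (the IDR set) held 1707 peaks, 1684 of them nuclear. It consisted of the 1707 strongest regions of the list called on the pooled replicates, with the same signals, so the IDR set and the pooled list are not separate evidence. The pooled list and the list of each replicate held 30000 regions each, ranging down to background. The lists hold no read totals, so depth is unknown. Signals are on the scale of their own list and were not compared between lists. Coordinates are in ce11.

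Of the 7 genes, 3 had a peak of the IDR set at their start, namely cdc-48.1, ufd-1 and ufd-2, beside 6.72% of all protein-coding genes. Weak regions at the starts of cdc-48.2 and cdc-48.3 brought the number to 5 of 7 in the pooled list, in the replicate 1 list and in the replicate 2 list, beside 37.2%, 37.7% and 37.6% of all protein-coding genes. No list had a region within 1500 bp of npl-4.1 or npl-4.2, which held for 27.4% of all protein-coding genes. The reach set which genes were counted. With summits within 250 bp, 1 of the 7, cdc-48.1, had an IDR peak beside 4.21% of all genes, and within 1000 bp 3 did beside 8.47%. In the pooled list 4 had a region within 250 bp beside 24.8%, and 5 within 1000 bp beside 48.5%. With any base of the peak within 500 bp the IDR count was 3 beside 7.38%, and among IDR peaks above the median signal it was 2 beside 3.58%. As many of the strongest regions as the IDR set holds gave 3 of the 7 from replicate 1 beside 6.42%, and 3 from replicate 2 beside 6.13%. A start with no region within 500 bp in any list was found for 2 of the 7, beside 48.6%. Nothing is read from these shares, since the genes were chosen with the peaks known.

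**Figure D1:**
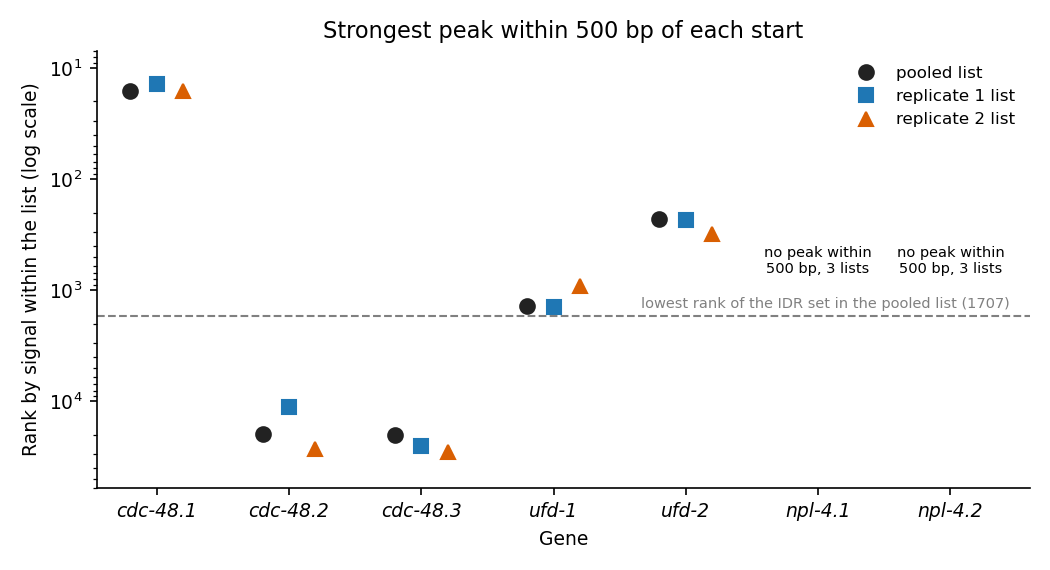
Rank by signal, on a log axis with strong peaks at the top, of the strongest region within 500 bp of the start of each gene in the pooled list (circles), the replicate 1 list (squares) and the replicate 2 list (triangles). The regions at cdc-48.1 rank from 14 to 16, those at ufd-2 from 228 to 314 and those at ufd-1 from 925 to 1408, while those at cdc-48.2 and cdc-48.3 lie at 11132 or lower in strength and npl-4.1 and npl-4.2 have none. The dashed line is the lowest rank of the IDR set in the pooled list, 1707.

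The genes stood in the same order by rank in both replicates. The plot of ranks by gene shows cdc-48.1 first, then ufd-2, then ufd-1, with no overlap between the replicate ranks of these 3 genes. The ranks of cdc-48.2 (11132 in replicate 1 and 26915 in replicate 2) and cdc-48.3 (25292 in replicate 1 and 28336 in replicate 2) overlapped. Within each replicate cdc-48.2 ranked above cdc-48.3, but with 2 replicates no difference between these genes is read. Within the pooled list the signal at cdc-48.1 was 3.28 times that at ufd-2, 6.61 times that at ufd-1, 27.3 times that at cdc-48.2 and 27.6 times that at cdc-48.3.

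The gene cdc-48.1 (WBGene00007352) encodes one of the 2 worm forms of CDC-48 itself. It lies on the minus strand of chromosome II from 10560036 to 10563407. Its peak spanned 10563464 to 10563685, with the summit 164 bp upstream of the start, in the 704 bp that separate it from C06A1.6. The peak is shown whole, because it is the strongest of the 7 genes, on the strand of the gene and from the WBcel235 genome of RefSeq, which is the same build as ce11. Capitals mark 2 words that recur in the peaks of ufd-1 and ufd-2, AACGAG and AGCGCG, here on the other strand as CTCGTT and CGCGCT.
cdc-48.1 peak, chrII:10563464-10563685, minus strand: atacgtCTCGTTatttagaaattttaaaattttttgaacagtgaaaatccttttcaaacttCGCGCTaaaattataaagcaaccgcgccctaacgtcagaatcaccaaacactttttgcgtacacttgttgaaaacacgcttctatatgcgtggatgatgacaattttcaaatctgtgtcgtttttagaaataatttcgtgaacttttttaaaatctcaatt

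The signal at cdc-48.1 was 281.3 in the IDR set and the pooled list, 180.4 in the replicate 1 list and 101.04 in the replicate 2 list. Its rank was 16 in the pooled list, 14 in replicate 1 and 16 in replicate 2. Every region that outranked it in the IDR set was mitochondrial except the peak at rpl-3, so it was second among the 1684 nuclear peaks. The nuclear peak above it, with a signal of 310.0, lay at rpl-3, a gene for a component of the large subunit of the ribosome. The nuclear peak below it, with 244.8, lay on chromosome III from 8043866 to 8044070, with no protein-coding start within 500 bp.

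The summits in the replicates were 1 bp apart at cdc-48.1, 164 bp and 165 bp upstream of the start. Over 1674 nuclear IDR peaks with a region in both replicates, the gap between summits had a median of 36 bp and quartiles of 16.2 and 69.0 bp, and 3.29% had a gap of at most 1 bp. The peak was narrower than the 356 bp that most regions of the pooled list have, at 222 bp in the pooled list, 192 bp in replicate 1 and 88 bp in replicate 2, where most regions had 324 bp. Narrow peaks were typical of the strongest regions: 9 of the 10 strongest nuclear IDR peaks, but 27 of all 1684, were narrower than that width.

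**Figure D2:**
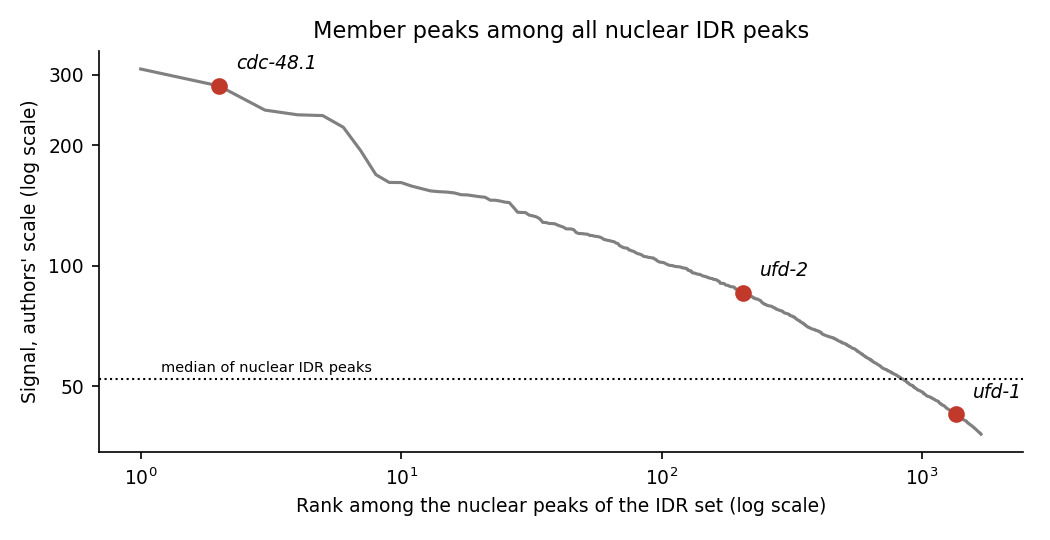
Signal of every nuclear peak of the IDR set (grey line), on the authors' scale, against its rank among the 1684 nuclear peaks, both on log axes. Red points are the peaks at cdc-48.1 (281.3, second), ufd-2 (85.71, at 206) and ufd-1 (42.58, at 1352), and the dotted line is the median of 52.17.

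Introns of cdc-48.1 hold 2 genes of small nucleolar RNAs, which guide chemical modification of other RNAs. C06A1.9, from 10562952 to 10563064, lay 507 bp from the summit in the pooled list and had no region within 250 bp in any of the 4 lists. C06A1.8, from 10560717 to 10560934, lay 2637 bp from that summit and had a weak region, with a signal of 15.80 and rank 9169 in the pooled list, and no IDR peak. C06A1.6, the next gene upstream of cdc-48.1, starts 1271 bp from its start and had no region within 500 bp in any list. The protein-coding start nearest to the peak was therefore that of cdc-48.1, and no other lay within 500 bp.

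By closeness of rank in both replicate lists, the 5 genes with a peak most like that of cdc-48.1, out of 994 with a nuclear IDR peak nearest to their start, were rpl-3, Y17G9B.5, rpl-15, rpl-35 and ekl-4. rpl-3 ranked at 13 and 15 in replicates 1 and 2, and Y17G9B.5 at 16 and 21. rpl-15 ranked at 20 and 19, rpl-35 at 21 and 23, and ekl-4 at 22 and 36. The mean absolute difference in log10 rank from cdc-48.1, over the 2 lists, was 0.0301 for rpl-3 and grew to 0.274 for ekl-4. The names rpl mark proteins of the large ribosomal subunit, and 2 of the other peaks also had a ribosomal protein gene within 500 bp, rpl-20 beside Y17G9B.5 and rps-20 beside ekl-4.

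The gene cdc-48.2 (WBGene00008053) encodes the other worm form of CDC-48, which acts redundantly with the product of cdc-48.1. It lies on the plus strand of chromosome II from 8138496 to 8141230, with 1577 bp between it and the divergent gene ctns-1. The strongest region within 500 bp of its start had a signal of 10.32 in the pooled list, 9.532 in replicate 1 and 3.762 in replicate 2. These regions were weak, at ranks 19649, 11132 and 26915, and the pooled one had a −log10 q-value of 0.127 against the maximum of 2.68 at cdc-48.1. Their summits lay 199 bp, 139 bp and 283 bp upstream, so the replicates were 144 bp apart.

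A stronger region lay farther upstream of cdc-48.2, outside the 500 bp. In the pooled list and in replicate 1 its summit was 891 bp upstream, from 8137427 to 8137782, with a signal of 26.23 (rank 3553) and 19.04 (rank 2908). In replicate 2 the strongest region there had its summit 1060 bp upstream, with a signal of 11.70 and rank 3883. The pooled region was below the lowest signal of the IDR set, 37.99. The nearest IDR peak was 13394 bp upstream, at ire-1, which encodes a sensor of unfolded protein in the endoplasmic reticulum, with a signal of 59.65.

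The gene cdc-48.3 (WBGene00010562) encodes a more distant AAA ATPase of the CDC-48 family, known in worms to bind and inhibit the Aurora B kinase AIR-2. It lies on the minus strand of chromosome I from 8032863 to 8035696 and is divergent from K04G2.4, which starts 102 bp away. Its region had a signal of 10.21 in the pooled list, 5.789 in replicate 1 and 3.584 in replicate 2, at ranks 20008, 25292 and 28336. In all 3 lists the summit lay in the coding sequence of cdc-48.3, downstream of the start by 131 bp in the pooled list and 144 bp in replicate 2, and the summits of the replicates were 23 bp apart. It was also within 500 bp of the start of K04G2.4. These ranks are in the weaker part of each list. The nearest IDR peak lay 7713 bp downstream in an intron of eif-2beta, with a signal of 40.22.

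The gene ufd-1 (WBGene00006733) encodes UFD-1, one partner of the substrate adaptor. It lies on the minus strand of chromosome IV from 12329408 to 12330890, 85 bp from the end of F19B6.1, which is transcribed in the same direction. Its IDR peak spanned 12331028 to 12331383, and the summit, 316 bp upstream, lay in the annotated 3′ UTR of F19B6.1. The signal was 42.58 in the IDR set and the pooled list, 26.71 in replicate 1 and 21.69 in replicate 2, at ranks 1375, 1408 and 925. In the nuclear part of the IDR set it ranked at 1352 of 1684, between peaks at alg-2 (42.60) and let-716 (42.56), below the median signal of 52.17.

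The start of F19B6.1 lies 5185 bp from that of ufd-1. It had a weaker region of its own, with a signal of 16.86 and rank 8097 in the pooled list, and no IDR peak. The summits of the replicates at ufd-1 were 93 bp apart, 211 bp upstream in replicate 1 and 304 bp upstream in replicate 2. A further region of replicate 2 lay just outside the limit, 511 bp upstream, with a signal of 5.862. A stretch of 30 bases from the peak is shown in the strand of ufd-1, with AGCGCG in capitals, because it holds the longest word shared with ufd-2.
ufd-1 stretch, chrIV:12331124-12331153, minus strand: ttgttcaacggAGCGCGtttgtcgttgcag

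The genes npl-4.1 (WBGene00019120) and npl-4.2 (WBGene00019121) encode NPL-4, the other partner of the adaptor. Both lie on the plus strand of chromosome II, npl-4.1 from 5631351 to 5633284 and npl-4.2 from 5622889 to 5624959, with 8462 bp between their starts. Neither had a region within 1500 bp in any of the 4 lists. The nearest region of the pooled list lay 1954 bp upstream of npl-4.1, with a signal of 15.23, and 3399 bp upstream of npl-4.2, at dhs-6, with 28.06. The nearest IDR peaks were 18279 bp and 23140 bp away.

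Around the starts these genes are near-identical copies. In the 1001 bases centred on the start, 1 base differed, an identity of 99.90%. It lay 14 bp downstream of the start and is written A14C, with the base of npl-4.2 first and that of npl-4.1 last. The identical stretch reached from 1325 bp upstream to 13 bp downstream. The 100 bases before each start, shown because they are the same in both copies, carry no capitals.
npl-4.1, chrII:5631251-5631350, and npl-4.2, chrII:5622789-5622888, plus strand: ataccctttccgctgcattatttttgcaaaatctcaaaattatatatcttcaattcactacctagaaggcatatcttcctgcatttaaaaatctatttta

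Within 500 bp of the start, 96.3% of the 36-base words of npl-4.1 and of npl-4.2 (930 of 966 for each) occur elsewhere in the genome, each of them in the other copy, and none of the 966 around each of the other 5 starts does. The word length was chosen after the peaks were seen. Read lengths, and the handling of reads that match several places, were not given in the sources used here. Among all protein-coding genes, 272 had starts with at least 90% of such words repeated, and 0 of these had a region in any list. These 272 include npl-4.1 and npl-4.2 themselves, so the count is not separate from them. Genes with repeated starts may also not be independent, and no limit is drawn from the count. The share with a region in any list was 30.6% of the 1893 genes with more than 10% and less than 90% repeated, and 54.4% of the 17808 genes with at most 10%. The part of repeated sequence in the absence of regions at npl-4.1 and npl-4.2 was not tested.

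**Figure D3:**
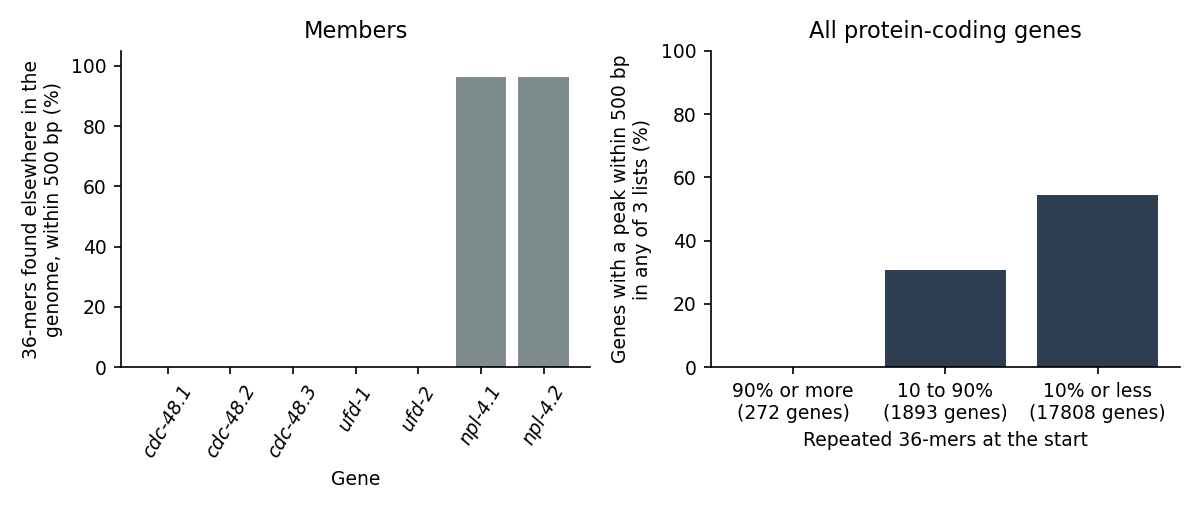
Left, share of the 36-base words within 500 bp of each start that occur elsewhere in the genome, which is 96.3% at npl-4.1 and npl-4.2 and 0 at the other 5 genes. Right, share of all protein-coding genes with a region within 500 bp in any list, by how much of the start is repeated, which is 0 of 272, 30.6% of 1893 and 54.4% of 17808 genes. The 272 include npl-4.1 and npl-4.2.

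The gene ufd-2 (WBGene00006734) encodes a U-box ubiquitin ligase that lengthens ubiquitin chains on substrates of CDC-48 and works with the ligase CHN-1. It lies on the plus strand of chromosome II from 8062741 to 8066193, with 987 bp between it and T05H10.8. Its IDR peak spanned 8062249 to 8062604, between the genes, with the summit 314 bp upstream. The middle 300 bases are shown, with the same words in capitals.
ufd-2 peak, chrII:8062278-8062577, plus strand: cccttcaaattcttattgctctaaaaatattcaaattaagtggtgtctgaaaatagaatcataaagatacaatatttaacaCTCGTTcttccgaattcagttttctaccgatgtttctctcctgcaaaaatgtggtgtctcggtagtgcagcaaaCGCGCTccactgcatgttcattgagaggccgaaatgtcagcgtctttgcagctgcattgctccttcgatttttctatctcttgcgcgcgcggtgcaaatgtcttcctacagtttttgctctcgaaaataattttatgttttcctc

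The signal at ufd-2 was 85.71 in the IDR set and the pooled list, 52.33 in replicate 1 and 32.56 in replicate 2, at ranks 228, 235 and 314. It ranked at 206 of the 1684 nuclear IDR peaks, between those at ecps-1 (85.81) and twk-10 (85.63). The summits of the replicates lay 263 bp and 331 bp upstream, 68 bp apart, and that of replicate 2 was the farthest inside the 500 bp among the strongest regions of the 7 genes. A second, weak region stood nearer the start, 109 bp upstream in the pooled list with a signal of 8.592 and 58 bp upstream in replicate 1 with 6.638. T05H10.8 had no region at its start in any list.

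**Figure D4:**
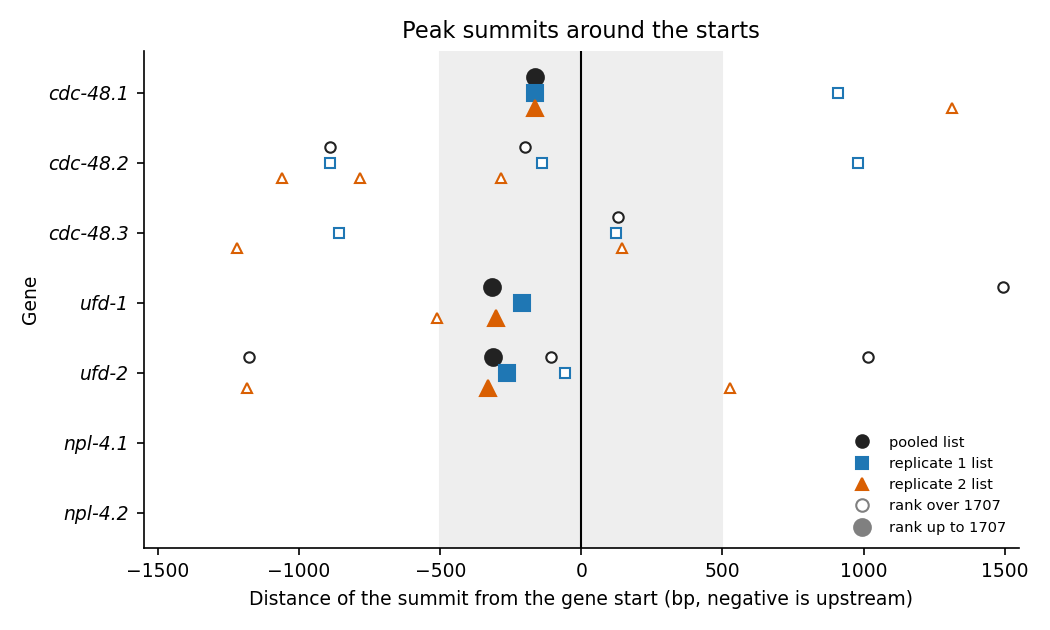
Distance of each summit from the gene start, in bp with upstream to the left, in the pooled list (circles), the replicate 1 list (squares) and the replicate 2 list (triangles). Large filled marks are regions ranked up to 1707 in their list and small open marks weaker ones, and the grey band is the 500 bp on each side. All large marks lie upstream, at cdc-48.1, ufd-1 and ufd-2, and the rows of npl-4.1 and npl-4.2 are empty.

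The strongest regions of the 2 replicates overlapped at all 5 genes that had them. Both regions lay within 500 bp of the same start, which favours overlap. The share of all protein-coding genes with such overlap was not computed, so nothing is read from this count. The shared length was 88 bp at cdc-48.1, which is 45.8% of the region of replicate 1 and 100% of that of replicate 2. It was 272 bp at ufd-2 (76.4% and 84.0%), 247 bp at ufd-1 (69.4% and 76.2%), 196 bp at cdc-48.2 (55.1% and 60.5%) and 317 bp at cdc-48.3 (89.0% and 97.8%). The regions at cdc-48.3 thus overlapped more than those at ufd-1 and ufd-2, although they were far weaker.

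The peaks of cdc-48.1, ufd-1 and ufd-2 were searched on both strands for words of 6 letters. Over their whole length they shared 17 such words and 3 of 7 letters, and none of 8. AGCGCG and AACGAG, picked after the values were seen, were those of the 17 found in the smallest shares of promoters. AGCGCG was found in 16.3% of windows reaching 100 bp to each side of nuclear IDR summits and in 3.41% of windows of the same length that end at the base before every protein-coding start. AACGAG was found in 13.7% of these IDR windows and 8.62% of the promoter windows, and at cdc-48.1 it lay outside this window, so that 2 of the 3 peaks had it there. AGCGCG lay 214 bp upstream of the start of cdc-48.1, 249 bp upstream of ufd-1 and 305 bp upstream of ufd-2. It was not within 500 bp of the start of cdc-48.2, cdc-48.3, npl-4.1 or npl-4.2, and 12.2% of all starts had it within that distance. Nothing is read from this difference, since the word was picked from the 3 peaks that have it. AACGAG lay 269 bp upstream of cdc-48.1, 280 bp upstream of ufd-1 and 379 bp upstream of ufd-2, but also 486 bp upstream of cdc-48.2, which had no IDR peak, and 34.4% of all starts had it within 500 bp.

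The peaks of ufd-1 and ufd-2 shared a longer word, CAAACGCGCTCC, or GGAGCGCGTTTG on the other strand, which contains AGCGCG and can be read in both sequences above. It occurred in 24 of 1684 IDR windows (1.43%) and in 38 of 19973 promoter windows (0.190%). The longest word shared by cdc-48.1 and ufd-1 was TCATCATCCA, or TGGATGATGA on the other strand. It was found in 1 of 1684 IDR windows (0.0594%), that of cdc-48.1 itself, and in 0.0951% of promoter windows. The longest shared by cdc-48.1 and ufd-2 were AAATAATTT (2.91% of IDR windows and 4.67% of promoter windows) and ATAATTTTA (1.48% and 2.07%). These longest words of cdc-48.1 were thus in smaller shares of IDR windows than of promoter windows. The shorter AGCGCG and AACGAG, which cdc-48.1 shared with both genes, went the other way, but they were picked with the smallest promoter shares. Among the other words of 6 letters that cdc-48.1 shared with both genes, AACACT had nearly equal shares (11.8% of IDR windows and 11.4% of promoter windows). All the rest were in smaller shares of IDR windows, such as TGAACA (12.2% and 15.5%) and TAGAAA (20.7% and 28.6%). Nothing is therefore read from the direction of AGCGCG and AACGAG. Within 100 bp of the summits, G and C made up 31.8% at cdc-48.1, 39.8% at ufd-1 and 44.8% at ufd-2, beside a median of 41.3% and quartiles of 36.3% and 46.3% over all nuclear IDR peaks. The peak of cdc-48.1 was below the lower quartile.

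For the same 3 peaks, 4 named motifs were looked up within 50 bp of the summit on each side, on both strands. CCAAT, the word for which the CEBPZ family is named, was in none of the 3 and in 15.8% of all nuclear IDR peaks and 17.5% of promoters. CACGTG, an E-box, was in none, beside 3.15% of IDR peaks and 2.47% of promoters. GAGA was in the peaks of ufd-1 and ufd-2, beside 68.3% and 57.7%. TTCNNGAA, the core of a heat shock element, was in none, beside 3.09% and 5.63%. The absence of these letters covers these windows alone.

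For the wider pathway and related ATPases, 45 genes were taken in 4 lists, 19 of them other AAA ATPases. Of the 45 genes, 14 (31.1%) had an IDR peak at their start, against 6.72% of all protein-coding genes. In the pooled list the count was 35 of 45 (77.8%), against 37.2%. These lists were drawn up by gene name with results of these data known, and the shares are descriptions. All 14 signals were below that of cdc-48.1, and spas-1 alone exceeded ufd-2.

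Among UBX and other cofactors of CDC-48, 3 of 10 had an IDR peak, beside 6.72% of all genes. Above the median signal 1 did, beside 3.58%. ufd-3, the counterpart of human PLAA, had a signal of 60.03. ubxn-2 had 46.60 and ubxn-1 had 40.07, both encoding proteins with the UBX domain that docks on CDC-48, and the peak of ubxn-1 was shared with tipn-1. Among the rest, ubxn-4 had 34.37 in the pooled list, atx-3, a deubiquitinase, had 28.95, and chn-1, the partner of ufd-2, had 17.53, none of them in the IDR set. ubxn-5, ubxn-6 and png-1 had no region in the pooled list, though png-1 had a weak one in replicate 2 (4.836, rank 19639).

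In degradation from the endoplasmic reticulum, 3 of 11 genes had an IDR peak, beside 6.72% of all genes. ubc-6 and ubc-7, which encode ubiquitin-conjugating enzymes of this route, had signals of 65.71 and 62.76, and rnf-121, which encodes a ring-finger ligase, had 62.17. The peak of ubc-6 was shared with aka-1 and that of rnf-121 with C16C10.4. sel-1, a part of the ligase complex at the membrane, had 28.50 in the pooled list and sel-11, its ligase, had 11.53. Of ubiquitin and its shuttles, 3 of 5 had an IDR peak, beside 6.72% of all genes, and 1 did with summits within 250 bp, beside 4.21%. The 3 were ubq-2 with 56.89, uba-1, the activating enzyme, with 56.69 and rad-23, a shuttle to the proteasome, with 38.97. The peak of ubq-2 was shared with frg-1 and that of rad-23 with rpn-12.

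Among other AAA ATPases, 5 of 19 had an IDR peak, beside 6.72% of all genes. From the strongest regions of single replicates it was 3 in replicate 1 (6.42% of all genes) and 4 in replicate 2 (6.13%). The IDR count was 1 with summits within 250 bp (4.21%), 2 above the median signal (3.58%) and 8 within 1000 bp (8.47%). spas-1, the counterpart of spastin, had 86.93, and nsf-1, the counterpart of the NSF fusion factor, had 74.02. The replicate 2 region of nsf-1 lay just outside the limit, 537 bp upstream, with a signal of 32.75. rpt-6 and rpt-2, which encode ATPases of the proteasome, had 49.34 and 45.94, the second shared with aps-1, and atad-3 had 46.40. rpt-3 and rpt-4, of the same ring, had no region in the pooled list, though rpt-3 had one in replicate 2 (7.277, rank 9904). rpt-1 and rpt-5, also of this ring, had 34.23 and 26.01 in the pooled list and no IDR peak. Within 100 bp of the summit, AGCGCG was in 3 of the 14 listed peaks (21.4%), beside 16.3% of all nuclear IDR peaks. AACGAG was in 1 (7.14%), beside 13.7%.

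**Figure D5:**
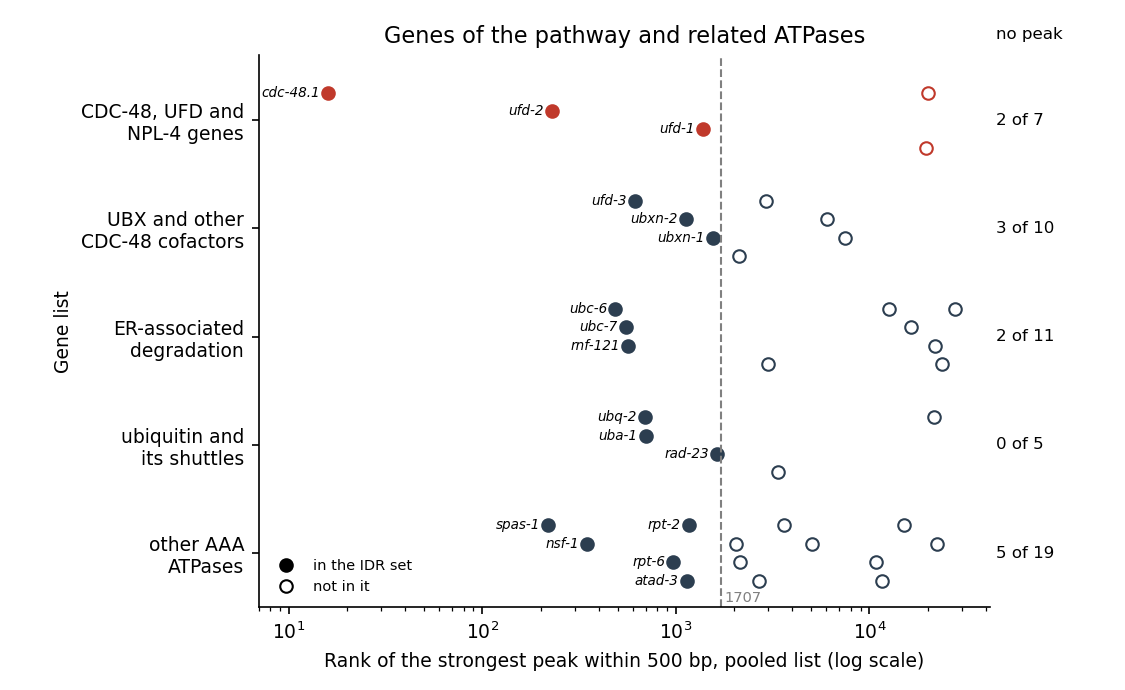
Rank in the pooled list, on a log axis with strong regions to the left, of the strongest region within 500 bp of each gene, for the 7 genes (red) and the 4 lists (dark). Filled marks are in the IDR set (3 of 7, then 3 of 10, 3 of 11, 3 of 5 and 5 of 19), the dashed line is rank 1707, and the numbers at the right count genes with no region in the pooled list.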

How the data were processed

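Each sample's narrowPeak list, the pooled list and the IDR set were used as the authors deposited them, in ce11. Each replicate was called against a control, with the same control file throughout, per the deposited notes. The aligner, the caller, the IDR threshold and the kind of control were not given in the sources used here. The signal of each peak is the authors' deposited value, and the deposited −log10 q-values ranked peaks in 1 alternative. Regions listed separately by replicate can be background. Depth is unknown, and the labels name biological replicates without more detail on cultures.

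Starts are the 5′ ends of genes in Ensembl release 115, and sequences come from the RefSeq copy of WBcel235. Python 3.11.15, pandas 2.3.3 and numpy 2.4.6 were used, and placement and repeat counting were tested on simulated data. The 7 genes and the 4 lists were chosen with earlier results of these data known. Named genes are the 7, others with starts within 500 bp of their peaks, listed genes with IDR peaks, the 5 of most similar rank, and neighbours in signal. Other genes named for weak or missing regions, and the repeats and shared words, were chosen after values were seen. No test was made. Protein identity, planned for paralogs, was not computed. Alternatives changed the distance, the start, the threshold, the ranking, the overlap and the motif window.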

Additional observations from a re-analysis of the deposited data

How the results depend on the processing

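The number of the 7 genes with an IDR peak, 3, was 1 (cdc-48.1) with summits within 250 bp (4.21% of all genes) and 2 above the median signal (3.58%), and 3 under the other alternatives and from either replicate alone. The rank of cdc-48.1, 16, was 2 among nuclear peaks, 1 by −log10 q, a value that 1187 peaks share, itself included, and 14 to 16 from single replicates. The 14 listed genes became 7 within 250 bp (4.21% of all genes), 17 within 1000 bp (8.47%) and 8 above the median (3.58%). As many of the strongest regions of single replicates as the IDR set holds gave 10 in replicate 1 (6.42%) and 12 in replicate 2 (6.13%). By list, the counts ran from 1 to 3 of 10 for UBX and other cofactors, 1 to 3 of 5 for ubiquitin and its shuttles and 1 to 8 of 19 for other AAA ATPases. The count stayed at 3 of 11 for degradation from the endoplasmic reticulum. The same shares of all genes stand beside these counts. TTCNNGAA was in 1 peak, that of cdc-48.1, within 100 bp of the summit in place of 50 bp. In the pooled list 4 of the 7 were found within 250 bp (24.8% of all genes) and 5 within 1000 bp (48.5%). Replicate overlap held at 4 genes when 50% of each region was asked (not cdc-48.1) or summits within 100 bp (not cdc-48.2). No share over all genes was computed for it. Unknown depth limits what the absence of a region shows. No paired analysis was possible because there was 1 group.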
